A study of Homo sapiens with 8 samples.

Results

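Lysosomes digest what cells take in or set aside, and the 42 genes described here make up their working parts in A549, an established human lung adenocarcinoma line. The genes were matched by symbol among the 58302 genes in the files, from a list drawn up with earlier results of these data known, and all 42 passed the filter on low counts. They comprise 4 lysosomal membrane proteins, 8 glycosidases and their helpers, 5 lipid hydrolases and their helper, 7 cathepsins with the peptidase TPP1, 6 subunits of the V1 sector of the V-ATPase, 4 proteins of its V0 sector and accessory part, 5 autophagy genes, and the transcription factors TFEB and TFE3. RNA sequencing covered 8 libraries in 4 groups of 2. One group carried a control shRNA (a hairpin RNA, libraries P15 and P3) and another an shRNA directed against AXL, a receptor tyrosine kinase (P15 and P3). Of the remaining groups, one is labelled control (P17 and P4) and the other was given 40 nM TP-0903, a small-molecule AXL kinase inhibitor (P17 and P4). All groups share the A549 line and its culture medium. The labels do not say what the number after P means, what the control cells were given, for how long cells were treated, or the hairpin sequences. Each treatment was set against its own control.

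Newly made hydrolases are carried from the Golgi to the lysosome, where they work in acid. The V-ATPase supplies the acid: its V1 sector hydrolyses ATP outside the organelle, and its V0 sector lets protons through the membrane. Autophagy encloses cell contents in a membrane studded with LC3-family proteins and delivers them to the lysosome. TFEB and TFE3 bind a short promoter element and raise transcription of many lysosomal genes when they are in the nucleus, and their entry is held back by mTORC1, a kinase complex on the lysosomal surface.

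Library totals ran from 30067011 to 44217023 expected counts, and the smallest count of any member in any library was 83, for TFEB. AXL itself, the target, stood at 85.1 and 139.5 CPM under the control hairpin, against 55.4 and 63 CPM under AXL shRNA, P15 before P3, a log2 fold change of -0.92 (SE 0.41, adjusted p = 0.12), or adjusted p = 0.000858 with the P number as a block. With TP-0903 its change was 0.43 (SE 0.41, adjusted p = 0.544), or adjusted p = 0.0354 with the block. A549 and epithelial markers were present, with 8 of 8 tested. They are the epithelial genes KRT8, KRT18, KRT19 and EPCAM and the enzyme genes AKR1B10, AKR1C1, ALDH1A1 and ALDH3A1. A change in their sum is thus not one of epithelial genes alone. Their sum was 19640 and 16510 CPM (counts scaled to library size) under the control hairpin, against 40840 and 34880 CPM under AXL shRNA. It was 20340 and 24470 CPM in control cells and 18040 and 25130 CPM with TP-0903. With AXL shRNA 5 of 8 rose (62.5%), where 18.5% of all genes did. Of 12 macrophage markers 3 were tested (ITGAM rose and CD14 fell with AXL shRNA), their sum was 14.4 to 29.9 CPM, and TYROBP was at 0 in all libraries. Of 8 fibroblast markers 5 were tested, COL1A1 and LUM rose with AXL shRNA, and their sum was 15.96 to 25.8 CPM outside the AXL shRNA libraries against 33.96 and 61.5 CPM in them. The part of these marker changes in the results was not tested. In bulk RNA, fewer cells of a kind and less RNA per cell cannot be told apart.

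The promoter element that TFEB and TFE3 read is shown first, since members that carry it responded in different ways. Its core, the E-box CACGTG, was searched on both strands in the 300 bases around each gene start (250 before, 50 after) in RefSeq's GRCh38.p14 promoters, with the longer forms TCACGTG and TCACGTGA. The forms are nested, so a match to TCACGTGA is also a match to the shorter forms. Promoters were found for 31 members. TCACGTGA stood in 5 of these 31 (16.1%), against 0.98% of 35116 promoters of the same length. TCACGTG stood in 9 (29%) against 3.71%, and CACGTG in 9 (29%) against 7.26%. The 35116 are all RefSeq promoters of that length, not only those of genes tested, and were not matched for base composition. The shares were not tested. The windows below, 50 bases each, show in capitals only the first match to the longest form found in that promoter. They are from NEU1, CLCN7 and ATP6V0D1, whose mRNA rose with TP-0903, and GAA, which like NEU1 fell with AXL shRNA. LAMP1 and MCOLN1, which passed neither test, are shown too. The promoters of CLCN7, GAA, LAMP1 and MCOLN1 each held 2 matches to the form shown. In the CLCN7 window the second stands near the right end in lower case.
NEU1 (chr6:31862921-31862970, minus strand): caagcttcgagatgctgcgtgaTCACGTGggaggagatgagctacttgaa
CLCN7 (chr16:1475049-1475098, minus strand): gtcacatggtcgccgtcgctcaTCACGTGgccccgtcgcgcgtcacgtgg
ATP6V0D1 (chr16:67481189-67481238, minus strand): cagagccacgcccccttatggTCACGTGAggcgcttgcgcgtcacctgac
GAA (chr17:80101483-80101532, plus strand): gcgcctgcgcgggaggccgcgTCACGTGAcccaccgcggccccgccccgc
LAMP1 (chr13:113297189-113297238, plus strand): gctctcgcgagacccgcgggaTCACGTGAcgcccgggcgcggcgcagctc
MCOLN1 (chr19:7522561-7522610, plus strand): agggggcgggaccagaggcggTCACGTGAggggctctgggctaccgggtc
Counted from the gene start, the matches in capitals cover bases -127 to -121 in NEU1, -48 to -42 in CLCN7 and -60 to -53 in ATP6V0D1. They cover -77 to -70 in GAA, -29 to -22 in LAMP1 and -42 to -35 in MCOLN1. The other members with TCACGTG were CTSA (with TCACGTGA), CTSD and CTSF. By response, TCACGTG stood in 3 of 8 promoters of members that rose with TP-0903 and in 6 of 23 that did not pass, and in 3 of 8 that fell with AXL shRNA, 1 of 8 that rose and 5 of 15 that did not pass. The antioxidant response element TGACNNNGC, searched because NRF2 is active in A549 cells and acts on SQSTM1, stood in 11 of 31 member promoters (35.5%) against 13.3% of all. SQSTM1's promoter held no match within the 300 bases searched. Elements further from the gene start could not be found, so this does not show that SQSTM1 lacks one.

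The members differed widely in abundance. On the TPM scale, which corrects for transcript length and so allows genes to be compared, the highest over the 8 libraries were PSAP (769 to 1911 TPM), CTSB (648 to 2466), SQSTM1 (463 to 1612), CTSL (437 to 1168) and CTSD (269.9 to 807). The lowest were TFEB (1.39 to 6.8 TPM), UVRAG (3.06 to 9.76), MCOLN1 (7.42 to 12.3) and SMPD1 (5.52 to 29). Summed over the 42 genes, TPM was 8459 (P15) and 6839 (P3) with the control hairpin, against 8609 and 8348 with AXL shRNA. The sum was 5848 (P17) and 6401 (P4) in control cells and 8376 and 7675 with TP-0903, so that both drug libraries stood above both controls. Summed CPM was 10410 and 9298 with the control hairpin, against 13300 and 12370 with AXL shRNA. In the drug arm it was 7491 and 8178 in control cells and 11040 and 10070 with TP-0903. The hairpin libraries thus stood above both their controls by CPM but not by TPM, and the drug libraries did so by both. The 5 abundant genes named above make up most of each sum.

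AXL shRNA changed 23 of the 42 genes, in both directions. V-ATPase subunits, SQSTM1 and GLA were among the 13 that rose, and TPP1, CTSF, UVRAG, TFEB and TFE3 among the 10 that fell. Over all 17676 genes tested, 18.5% passed as higher and 19.0% as lower, beside 31% and 23.8% of the members. Their median log2 fold change was -0.04, beside -0.01 for all genes. AXL shRNA libraries lay wholly above both controls for 13 members (34.4% of all genes) and wholly below for 17 (35.5%). With the P number as a block 14 rose and 16 fell, where 25.6% and 26.1% of all genes did. The split depends on scaling: by library totals 9 rose and 16 fell, and on the log2 TPM scale 9 rose and 17 fell. The members' median was then -0.25 by library totals and -0.29 or -0.31 by log2 TPM plus 1 or 0.1. The calls for PSAP, ATP6V1A and MAP1LC3B were lost under both scalings, that for GABARAPL1 by library totals and that for PPT1 by log2 TPM. Library totals also lowered the median of all genes to -0.21, and the share of higher genes among all calls from 49.4% to 32.8%. Of the 23 calls, 17 held whichever of the 4 libraries was left out. The other 6 were ASAH1, PSAP, ATP6V1A, SQSTM1, GABARAPL1 and MAP1LC3B, and all but SQSTM1 were lost without more than 1 of the libraries.

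TP-0903 changed 12 of the 42 genes, all upward. They were the membrane proteins LAMP2 and CLCN7, the hydrolase genes NEU1 and LIPA, the activator precursor PSAP, 6 V-ATPase genes and MAP1LC3B. That is 28.6% of the members as higher, where 4.90% of all genes passed as higher and 6.35% as lower. At an unadjusted p of 0.05 in edgeR 1 member was lower, GUSB, and DESeq2 called 1. The members' median was 0.40, beside -0.02 for all genes. Both TP-0903 libraries stood above both controls for 30 members (28.9% of all genes) and below them for 4 (30.9%), namely GUSB, PPT1, CTSC and TPP1. Within pairs of the same P number, the median member change was 0.43 (P17) and 0.34 (P4), beside -0.02 and 0 for all genes. In both pairs 32 members were higher and 6 lower, where 38.1% and 39.9% of all genes were. With the P number as a block 24 rose and 1, GUSB, fell, where 12.9% and 13.4% of all genes did. The 12 calls rest on few libraries: without control P17 or TP-0903 P17 no member passed, without control P4 2 did (NEU1 and PSAP), and without TP-0903 P4 3 did (NEU1, ATP6V1D and ATP6V0E1). In those fits the lone library of a group is assumed to vary like the others. DESeq2 called 19 members higher, library totals gave 6 and log2 TPM 4 (NEU1, PSAP, ATP6V1H and ATP6V0E1), and no called member changed direction.

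**Figure D1:**
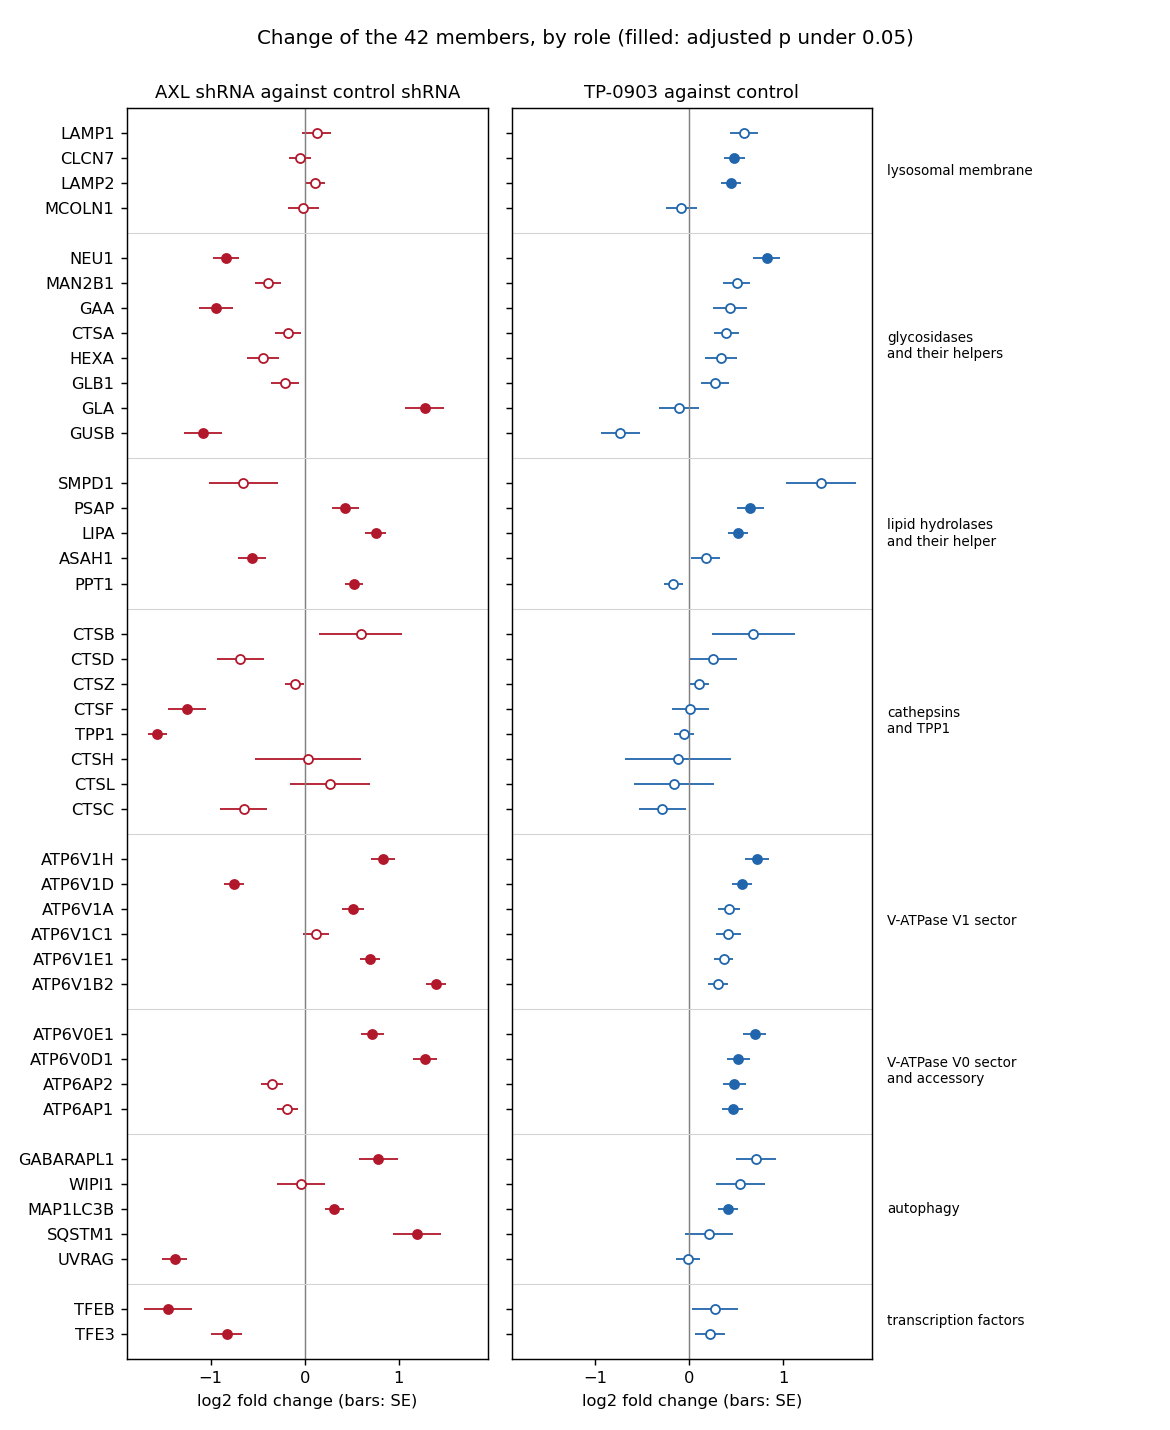
Log2 fold change (horizontal axis) of the 42 genes, grouped by role, with AXL shRNA against control shRNA (left) and TP-0903 against control (right). Points are estimates over 2 libraries against 2, bars are SE, and filled points passed adjusted p 0.05; 12 points are filled in the drug panel, all to the right of 0, and 23 in the hairpin panel, 13 to the right and 10 to the left.

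Of the membrane proteins, LAMP2 and CLCN7 rose with TP-0903 and none of 4 passed with AXL shRNA. LAMP2, a glycosylated wall protein that also takes part in autophagy, stood at 137 and 141 CPM in control cells and 186 and 191 CPM with TP-0903, P17 before P4, a log2 fold change of 0.44 (SE 0.11, adjusted p = 0.0402). The chloride-proton exchanger CLCN7 stood at 75.1 and 80.3 CPM in control cells and 103 and 113 CPM with TP-0903, a change of 0.48 (SE 0.11, adjusted p = 0.038). In both genes the treated libraries lay above the controls. LAMP1, the other main wall protein, stood at 136 and 121 CPM in control cells and 212 and 173 CPM with TP-0903, also without overlap, and its change of 0.58 (SE 0.15, adjusted p = 0.0519) passed with the block (adjusted p = 0.00503) and with DESeq2 (adjusted p = 0.00705). The calcium channel MCOLN1 stood at 10 and 9.81 CPM in control cells and 8.73 and 9.99 CPM with TP-0903, and the groups overlapped (log2 fold change -0.08, SE 0.16, adjusted p = 0.791). With AXL shRNA the groups of all 4 genes overlapped. LAMP1 stood at 144 and 115 CPM under the control hairpin, against 146 and 137 CPM under AXL shRNA, P15 before P3 (log2 fold change 0.13, SE 0.15, adjusted p = 0.546). LAMP2 stood at 175 and 154 CPM under the control hairpin, against 171 and 183 CPM under AXL shRNA (log2 fold change 0.10, SE 0.11, adjusted p = 0.469). The direction of both LAMP genes turned under library totals and TPM. For CLCN7 the values were 110.1 and 96 CPM under the control hairpin, against 102 and 96.8 CPM under AXL shRNA (log2 fold change -0.05, SE 0.11, adjusted p = 0.747). MCOLN1 stood at 10.4 and 10.4 CPM under the control hairpin, against 9.42 and 11.1 CPM under AXL shRNA (log2 fold change -0.02, SE 0.16, adjusted p = 0.948). MCOLN1 shares 6 exon bases with the more abundant PNPLA6, which changed by 0.23 with AXL shRNA (adjusted p = 0.114) and 0.17 with TP-0903 (adjusted p = 0.309).

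Glycosidase genes, whose products cut sugars from glycoproteins and glycolipids, moved apart from each other. With AXL shRNA GLA rose, NEU1, GAA and GUSB fell, and 4 of 8 did not pass. With TP-0903 NEU1 passed and the other 7 did not. NEU1, the sialidase that removes terminal sialic acids, stood at 45.1 and 36.3 CPM under the control hairpin, against 22.4 and 23.2 CPM under AXL shRNA, a fall to 0.561 of the control level (log2 fold change -0.83, SE 0.14, adjusted p = 0.00425). In the drug arm it stood at 29.5 and 32.8 CPM in control cells and 58.7 and 51.6 CPM with TP-0903, a rise to 1.77 times the control level (log2 fold change 0.82, SE 0.14, adjusted p = 0.012). Both arms showed no overlap, so NEU1 passed the test in opposite directions. GLA, alpha-galactosidase A, which is deficient in Fabry disease, stood at 55.5 and 56.7 CPM under the control hairpin, against 119.8 and 151 CPM under AXL shRNA, a rise to 2.41 times control (log2 fold change 1.27, SE 0.21, adjusted p = 0.00399). Drug-arm values of GLA were 79.5 and 104 CPM in control cells and 70.1 and 100 CPM with TP-0903, with overlap (log2 fold change -0.11, SE 0.21, adjusted p = 0.781). GAA, acid alpha-glucosidase, which breaks down lysosomal glycogen, stood at 209 and 159.6 CPM under the control hairpin, against 107 and 84.9 CPM under AXL shRNA (log2 fold change -0.94, SE 0.18, adjusted p = 0.00693). It stood at 87.8 and 108 CPM in control cells and 128 and 137 CPM with TP-0903, above the controls in both drug libraries, with a change of 0.43 (SE 0.18, adjusted p = 0.169) that passed with the block (adjusted p = 0.0142). GUSB, beta-glucuronidase, stood at 46.7 and 34.1 CPM under the control hairpin, against 21.9 and 16.4 CPM under AXL shRNA (log2 fold change -1.08, SE 0.21, adjusted p = 0.00657). In the drug arm it stood at 31.3 and 26.1 CPM in control cells and 17.6 and 17 CPM with TP-0903, below the controls in both drug libraries (log2 fold change -0.73, SE 0.21, adjusted p = 0.0635; adjusted p = 0.00259 with the block). GUSB is uncertain, because 12 pseudogene copies in the table hold 43.1% as many counts as it does and near-identical reads could be split between them.

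The other glycosidases and their helpers passed neither test. They are HEXA, a hexosaminidase chain, the mannosidase MAN2B1, the galactosidase GLB1, and CTSA, which protects GLB1 and NEU1 in a complex. With AXL shRNA HEXA changed by -0.44 and MAN2B1 by -0.39, which passed with the block (adjusted p = 0.00777 and 0.0251). With TP-0903 all 4 were above the controls in both libraries, as 28.9% of all genes were, with changes from 0.28 (GLB1) to 0.50 (MAN2B1). HEXA, MAN2B1 and CTSA passed there with the block (adjusted p = 0.041, 0.016 and 0.0383).

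Among lipid hydrolases and their helper, LIPA and PSAP rose with both treatments. LIPA, the acid lipase that frees cholesterol and fatty acids from lipoprotein esters, stood at 124 and 114 CPM under the control hairpin, against 206 and 195 CPM under AXL shRNA (log2 fold change 0.75, SE 0.11, adjusted p = 0.00234). The drug libraries differed too: LIPA stood at 109 and 116 CPM in control cells and 154 and 168 CPM with TP-0903 (log2 fold change 0.52, SE 0.11, adjusted p = 0.025). LIPA shares 1.32% of its exon bases with the opposite-strand gene IFIT2, which holds 6.16% as many counts and rose by 2.07 with AXL shRNA (adjusted p = 0.00476). PSAP, precursor of the saposins that present lipids to their hydrolases, stood at 2272 and 2177 CPM under the control hairpin, against 3007 and 2991 CPM under AXL shRNA (log2 fold change 0.43, SE 0.14, adjusted p = 0.0496). It stood at 1168 and 1429 CPM in control cells and 1981 and 2090 CPM with TP-0903 (log2 fold change 0.65, SE 0.14, adjusted p = 0.0304). PSAP's groups did not overlap in either arm, but the call with AXL shRNA was lost without any 1 of its 4 libraries (adjusted p up to 0.161).

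PPT1, a thioesterase that strips palmitate from proteins, averaged 64.6 ± 2.02 CPM under the control hairpin and 93 ± 1.35 CPM under AXL shRNA (SD, n = 2; log2 fold change 0.53, SE 0.10, adjusted p = 0.00587). On the log2 TPM plus 1 scale the change was 0.21 (adjusted p = 0.131), and the call was lost. PPT1 shares 23.4% of its exon bases with CAP1 on the opposite strand, which holds 371% of its counts and rose by 1.04 (adjusted p = 0.002). Counting is not stated to use strand, so reads of PPT1 and CAP1 cannot be told apart there. ASAH1, acid ceramidase, fell from 203 ± 19.8 to 138 ± 3.86 CPM (SD, n = 2; log2 fold change -0.56, SE 0.15, adjusted p = 0.0234). That call was lost without either AXL shRNA library or control shRNA P15 (adjusted p up to 0.105). SMPD1, acid sphingomyelinase, averaged 12.1 ± 1.19 CPM in control cells and 32 ± 10.1 CPM with TP-0903 (SD, n = 2), with both drug libraries above both controls (log2 fold change 1.40, SE 0.37, adjusted p = 0.0536; adjusted p = 0.000524 with the block). With AXL shRNA it changed by -0.65 (SE 0.37, adjusted p = 0.201), or adjusted p = 0.0127 with the block.

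TPP1, a tripeptidyl peptidase that is lacking in a neuronal storage disease, fell with AXL shRNA. It stood at 185 and 176 CPM under the control hairpin, against 64.9 and 57.1 CPM under AXL shRNA, 0.338 of the control level (log2 fold change -1.56, SE 0.11, adjusted p = 0.000371). In the drug arm TPP1 stood at 102 and 103 CPM in control cells and 97.2 and 99.5 CPM with TP-0903 (log2 fold change -0.06, SE 0.10, adjusted p = 0.775), a difference that turned positive when effective lengths or TPM were used. CTSF, a cysteine cathepsin, stood at 81.4 and 64 CPM under the control hairpin, against 34.7 and 26.5 CPM under AXL shRNA (log2 fold change -1.25, SE 0.20, adjusted p = 0.00338). Drug-arm values of CTSF were 37.6 and 47.7 CPM in control cells and 39.5 and 46.7 CPM with TP-0903, with overlap (log2 fold change 0.01, SE 0.20, adjusted p = 0.974). Both hairpin libraries lay well below their controls for TPP1 and CTSF.

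None of the 8 genes of this protease group passed with TP-0903, where 4.90% of all genes passed as higher and 6.35% as lower. With only 8 genes that is no result about the group. CTSD, the main aspartic protease of lysosomes, stood at 929 and 604 CPM under the control hairpin, against 573 and 381 CPM under AXL shRNA, without overlap, and its change of -0.69 (SE 0.25, adjusted p = 0.0671) passed with the block (adjusted p = 0.00116). It stood at 436 and 491 CPM in control cells and 562 and 545 CPM with TP-0903 (log2 fold change 0.26, SE 0.25, adjusted p = 0.554). CTSB, an abundant cysteine protease, stood at 1818 and 947 CPM under the control hairpin, against 2790 and 1383 CPM under AXL shRNA, with overlap (log2 fold change 0.59, SE 0.44, adjusted p = 0.323; adjusted p = 0.00616 with the block). In each group the library of higher P number held more CTSB than the other. CTSB in the drug arm stood at 1915 and 1440 CPM in control cells and 3385 and 1992 CPM with TP-0903 (log2 fold change 0.68, SE 0.44, adjusted p = 0.359; adjusted p = 0.00862 with the block). CTSL, a cysteine endopeptidase, stood at 637 and 799 CPM under the control hairpin, against 613 and 1115 CPM under AXL shRNA (log2 fold change 0.27, SE 0.42, adjusted p = 0.65) and at 374 and 756 CPM in control cells and 370.4 and 639.5 CPM with TP-0903 (log2 fold change -0.16, SE 0.42, adjusted p = 0.844), with overlap in both arms. CTSC, which activates granule proteases, changed by -0.65 (SE 0.25, adjusted p = 0.0809) with AXL shRNA, or adjusted p = 0.00279 with the block. CTSZ and CTSH changed by -0.11 and 0.03 with AXL shRNA and by 0.11 and -0.12 with TP-0903, with no call.

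CTSH and CTSL followed the P number instead, a pattern for which both were singled out after their values were seen and for which no test is given. CTSH, an aminopeptidase, stood at 38 and 18.1 CPM under the control hairpin, against 32.4 and 25 CPM under AXL shRNA, the higher P number first, and at 52 and 18.9 CPM in control cells and 44.4 and 20.9 CPM with TP-0903. All 4 libraries of high P number lay above all 4 of low number for CTSH, and below them for CTSL. Of all genes, 1.30% were apart as CTSH and 1.60% as CTSL, and no other member was.

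**Figure D2:**
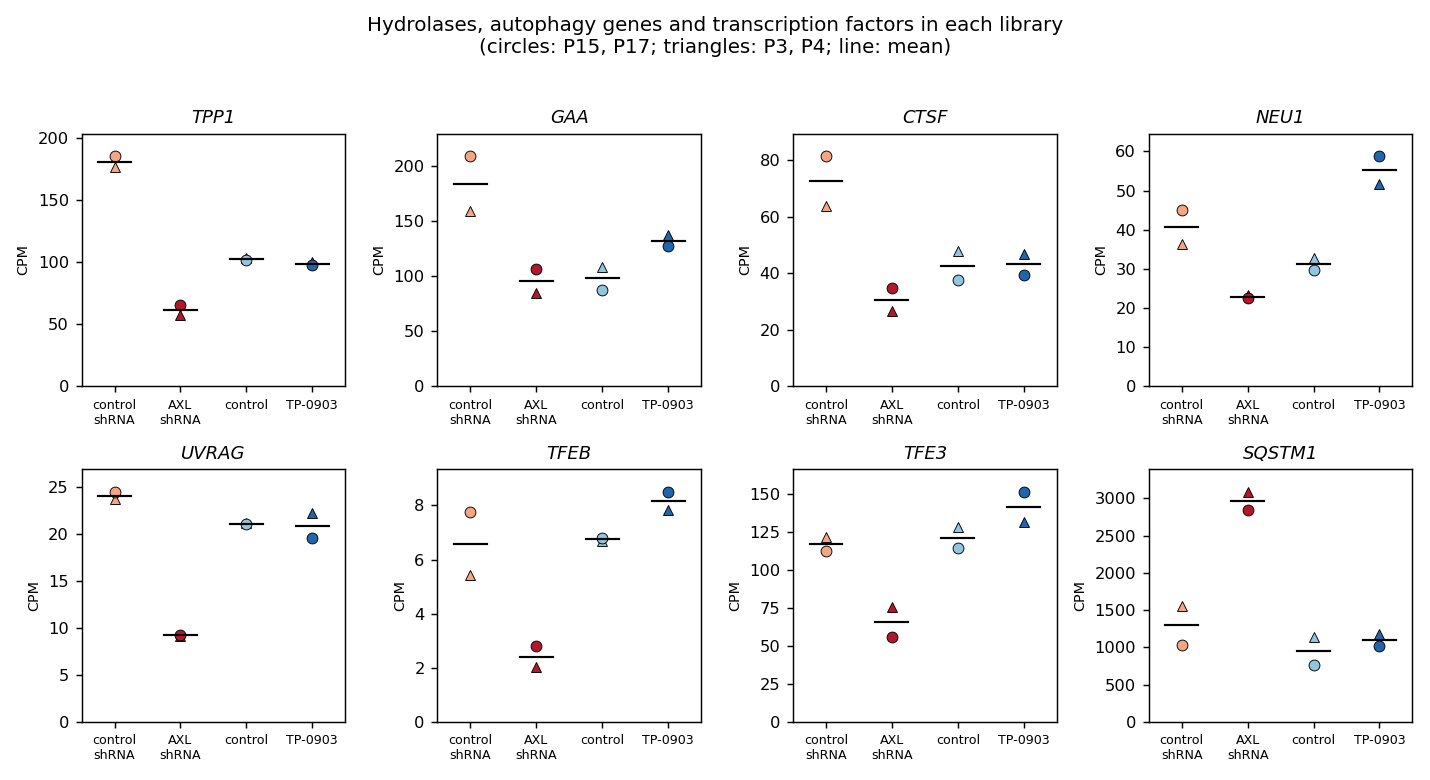
CPM (vertical axis, from 0) of 8 genes in each of the 8 libraries; circles are P15 and P17, triangles P3 and P4, and lines are group means. TPP1, GAA, CTSF, UVRAG, TFEB and TFE3 are low in both AXL shRNA libraries against control shRNA, SQSTM1 is high there, and NEU1 is low there and high with TP-0903.

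Of 10 V-ATPase genes 6 rose, 1 fell and 3 did not pass with AXL shRNA, where 18.5% of all genes rose and 19.0% fell. With TP-0903 6 rose and 4 did not pass, where 4.90% of all genes rose. All 10 had both TP-0903 libraries above both controls, as 28.9% of all genes did. ATP6V1B2, the B subunit of the catalytic ring in most tissues, stood at 48.6 and 49.7 CPM under the control hairpin, against 129.5 and 129 CPM under AXL shRNA, 2.63 times the control level (log2 fold change 1.40, SE 0.11, adjusted p = 0.000392). Its drug values were 65.7 and 57.5 CPM in control cells and 79.3 and 73 CPM with TP-0903 (log2 fold change 0.31, SE 0.11, adjusted p = 0.11; adjusted p = 0.0443 with the block). ATP6V1A, the catalytic subunit, stood at 83.9 and 74.2 CPM under the control hairpin, against 121 and 104 CPM under AXL shRNA (log2 fold change 0.51, SE 0.12, adjusted p = 0.0133). That call was lost without AXL shRNA P15 or control shRNA P3 (adjusted p up to 0.0781). Drug-arm values of ATP6V1A were 80.2 and 78.6 CPM in control cells and 109 and 104 CPM with TP-0903 (log2 fold change 0.42, SE 0.12, adjusted p = 0.0598; adjusted p = 0.0125 with the block). ATP6V1H, which regulates coupling of the sectors, rose in both arms: it stood at 39.2 and 31.7 CPM under the control hairpin, against 60.5 and 66.1 CPM under AXL shRNA (log2 fold change 0.84, SE 0.13, adjusted p = 0.00285). It stood at 39.6 and 41 CPM in control cells and 64.6 and 68.2 CPM with TP-0903 (log2 fold change 0.72, SE 0.13, adjusted p = 0.0135). The stalk subunit ATP6V1E1 averaged 86.4 ± 0.401 CPM under the control hairpin and 139.7 ± 0.461 CPM under AXL shRNA (SD, n = 2; log2 fold change 0.69, SE 0.10, adjusted p = 0.00274).

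ATP6V1D, part of the rotor, fell with AXL shRNA while 4 of the other 5 V1 members rose. It stood at 67.8 and 62.2 CPM under the control hairpin, against 38 and 39 CPM under AXL shRNA (log2 fold change -0.75, SE 0.11, adjusted p = 0.00223). In the drug arm it stood at 63.2 and 58.9 CPM in control cells and 95.4 and 85.2 CPM with TP-0903, a rise (log2 fold change 0.56, SE 0.11, adjusted p = 0.0172). The groups were apart in both arms, in opposite directions. ATP6V1D shares 6.33% of its exon bases with EIF2S1 on the opposite strand, which holds 272% of its counts and changed by 0.32 with AXL shRNA (adjusted p = 0.0765) and -0.01 with TP-0903 (adjusted p = 0.956). ATP6V1C1, a stalk subunit, changed by 0.12 (SE 0.14, adjusted p = 0.521) with AXL shRNA and by 0.42 (SE 0.14, adjusted p = 0.0954) with TP-0903. With the block the drug values of ATP6V1C1 and ATP6V1E1 passed (adjusted p = 0.028 and 0.0229).

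All 4 members of the V0 sector and accessory part rose with TP-0903. ATP6V0D1, which joins the rotor to the membrane ring, stood at 69.3 and 62.3 CPM in control cells and 97.5 and 91.6 CPM with TP-0903 (log2 fold change 0.52, SE 0.12, adjusted p = 0.0391). Its hairpin values were 52.1 and 42.8 CPM under the control hairpin, against 113 and 117 CPM under AXL shRNA, 2.43 times control (log2 fold change 1.28, SE 0.13, adjusted p = 0.000687). ATP6V0E1, a small membrane subunit, stood at 126 and 124 CPM in control cells and 216 and 190.1 CPM with TP-0903 (log2 fold change 0.70, SE 0.12, adjusted p = 0.013). In the hairpin arm ATP6V0E1 stood at 146 and 128 CPM under the control hairpin, against 213 and 238 CPM under AXL shRNA (log2 fold change 0.72, SE 0.12, adjusted p = 0.00425), so both subunits rose in both arms. The accessory proteins, which help assemble the pump, rose with the drug and did not pass with the hairpin, and the effects differed by 0.65 for ATP6AP1 and 0.83 for ATP6AP2 (adjusted p = 0.0281 and 0.0152). ATP6AP1 stood at 104 and 116 CPM in control cells and 154 and 148 CPM with TP-0903 (log2 fold change 0.46, SE 0.11, adjusted p = 0.0408) and at 152 and 140.2 CPM under the control hairpin, against 136 and 121 CPM under AXL shRNA (log2 fold change -0.18, SE 0.11, adjusted p = 0.23). ATP6AP2, also known as the prorenin receptor, stood at 178 and 181 CPM in control cells and 254 and 247 CPM with TP-0903 (log2 fold change 0.48, SE 0.12, adjusted p = 0.0446). It stood at 243 and 208 CPM under the control hairpin, against 187 and 167 CPM under AXL shRNA (log2 fold change -0.35, SE 0.12, adjusted p = 0.055; adjusted p = 0.0174 with the block). Both accessory genes were lower in both AXL shRNA libraries than in their controls (35.5% of all genes), and higher in both drug libraries (28.9%).

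**Figure D3:**
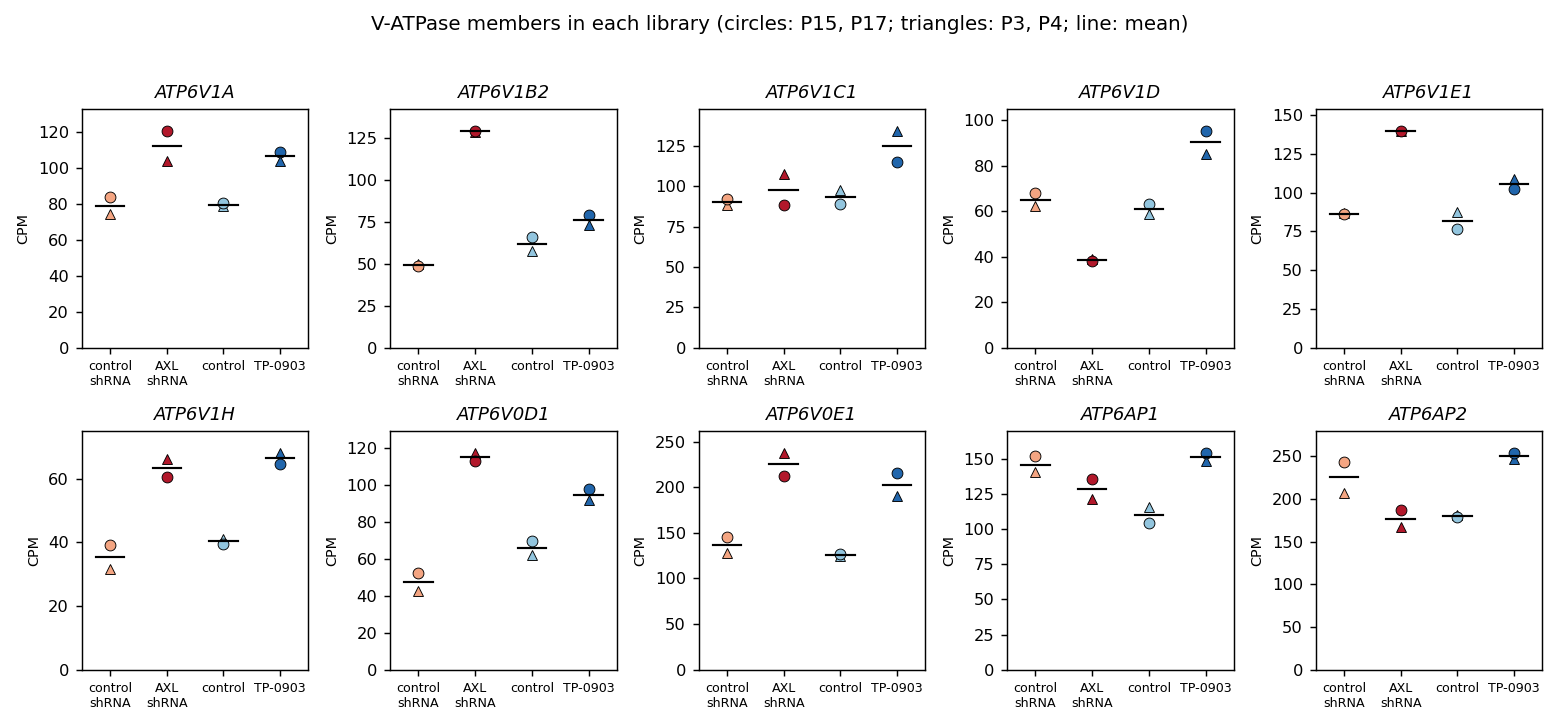
CPM (vertical axis, from 0) of the 10 V-ATPase genes in each library; circles are P15 and P17, triangles P3 and P4, lines are group means. In all 10 panels both TP-0903 libraries lie above both control libraries, while AXL shRNA libraries lie above control shRNA in 6, below in 3 and overlap in 1 (ATP6V1C1).

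Of the autophagy genes, SQSTM1, GABARAPL1 and MAP1LC3B rose with AXL shRNA, UVRAG fell and WIPI1 did not pass. SQSTM1, which encodes the cargo receptor p62, stood at 1037 and 1556 CPM under the control hairpin, against 2842 and 3082 CPM under AXL shRNA, 2.28 times control (log2 fold change 1.19, SE 0.26, adjusted p = 0.0103). Without control shRNA P15 the adjusted p was 0.0552. Its drug values were 756 and 1141 CPM in control cells and 1023 and 1175 CPM with TP-0903, with overlap (log2 fold change 0.21, SE 0.25, adjusted p = 0.637). SQSTM1 shares 1.37% of its exon bases with the opposite-strand MGAT4B, which holds 11% as many counts. The LC3-family genes encode the proteins that coat the autophagosome. MAP1LC3B stood at 139.7 and 129.8 CPM under the control hairpin, against 160.1 and 174 CPM under AXL shRNA (log2 fold change 0.31, SE 0.10, adjusted p = 0.047) and at 96.3 and 95 CPM in control cells and 131 and 124 CPM with TP-0903 (log2 fold change 0.41, SE 0.10, adjusted p = 0.0438). Both MAP1LC3B calls were lost whichever of their 4 libraries was left out (adjusted p up to 0.205 and 0.252). Its opposite-strand neighbour FBXO31 shares 2.82% of its exon bases, holds 21.3% as many counts, and changed by 0.52 with AXL shRNA (adjusted p = 0.0254) and -0.36 with TP-0903 (adjusted p = 0.147).

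GABARAPL1 stood at 69.4 and 46.7 CPM under the control hairpin, against 98.3 and 101 CPM under AXL shRNA (log2 fold change 0.78, SE 0.21, adjusted p = 0.024). That call was lost without control shRNA P3 or either AXL shRNA library (adjusted p up to 0.104). Drug-arm values of GABARAPL1 were 29.9 and 41.1 CPM in control cells and 58.4 and 57.9 CPM with TP-0903, without overlap (log2 fold change 0.71, SE 0.21, adjusted p = 0.0735; adjusted p = 0.0131 with the block). UVRAG, a subunit of a lipid kinase complex in autophagosome and endosome maturation, stood at 24.4 and 23.6 CPM under the control hairpin, against 9.27 and 9.14 CPM under AXL shRNA, 0.383 of the control level (log2 fold change -1.38, SE 0.13, adjusted p = 0.000584). Its drug values were 21 and 21.1 CPM in control cells and 19.5 and 22.1 CPM with TP-0903, with overlap (log2 fold change -0.01, SE 0.13, adjusted p = 0.956). WIPI1, which binds the growing autophagosome membrane, changed by -0.04 (SE 0.25, adjusted p = 0.921) with AXL shRNA and 0.54 (SE 0.26, adjusted p = 0.217) with TP-0903, and shares 24.3% of its exon bases with the opposite-strand ARSG, which holds 12% as many counts.

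Both transcription factor genes fell with AXL shRNA, and neither passed with TP-0903. TFEB stood at 7.75 and 5.42 CPM under the control hairpin, against 2.81 and 2.01 CPM under AXL shRNA, 0.366 of the control level (log2 fold change -1.45, SE 0.26, adjusted p = 0.00516). TFE3 stood at 113 and 122 CPM under the control hairpin, against 56.1 and 75.8 CPM under AXL shRNA (log2 fold change -0.83, SE 0.16, adjusted p = 0.00726). Both AXL shRNA libraries lay below both controls for each factor. In the drug arm TFEB stood at 6.79 and 6.69 CPM in control cells and 8.49 and 7.82 CPM with TP-0903 (log2 fold change 0.27, SE 0.25, adjusted p = 0.524). TFE3 stood at 115 and 128 CPM in control cells and 151 and 132 CPM with TP-0903 (log2 fold change 0.22, SE 0.16, adjusted p = 0.417). The drug libraries were above the controls for both genes, as for 28.9% of all genes, but neither passed. Protein level and location of the factors were not analysed here.

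The treatments were then compared directly, across arms that also differ in P number and in their controls. Those differences cannot be told apart from that of treatment. The test asked whether the drug effect differed from the hairpin effect. For 17 of 42 members it did: the drug effect was higher for 13 and lower for 4, where 9.82% and 10.8% of all genes passed. The difference was 1.66 for NEU1 (SE 0.20, adjusted p = 0.00259), 1.51 for TPP1 (SE 0.15, adjusted p = 0.00149) and 1.73 for TFEB (SE 0.36, adjusted p = 0.0162). For the V-ATPase it was 1.32 for ATP6V1D (SE 0.15, adjusted p = 0.00224) but -1.09 for ATP6V1B2 (SE 0.15, adjusted p = 0.00416) and -0.76 for ATP6V0D1 (SE 0.18, adjusted p = 0.0239). Calls for NEU1, GAA, TPP1, ATP6V1B2, ATP6V1D and UVRAG held whichever of the 8 libraries was left out, and those for the other 11 did not. Without control P17 5 members were higher and 2 lower, without TP-0903 P17 6 and 1, without control shRNA P15 or AXL shRNA P3 8 and 2, and without control shRNA P3 14 and 2. By library totals it was higher for 16 and lower for 3. By the tests of each arm, 6 genes rose in both: PSAP, LIPA, ATP6V1H, ATP6V0D1, ATP6V0E1 and MAP1LC3B. That is 26.1% of the 23 hairpin calls and 50% of the 12 drug calls. Of all 42 members 31% rose with AXL shRNA and 28.6% with TP-0903, so some overlap would arise without any link. The share of all genes that rose in both was not computed, so the overlap is no result about the members. NEU1 and ATP6V1D passed in opposite directions, and 15 genes passed in neither arm. Among the 17 genes whose effects differed, GAA, MAN2B1, ASAH1, TPP1 and PPT1 also differed between the control groups, as given below.

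**Figure D4:**
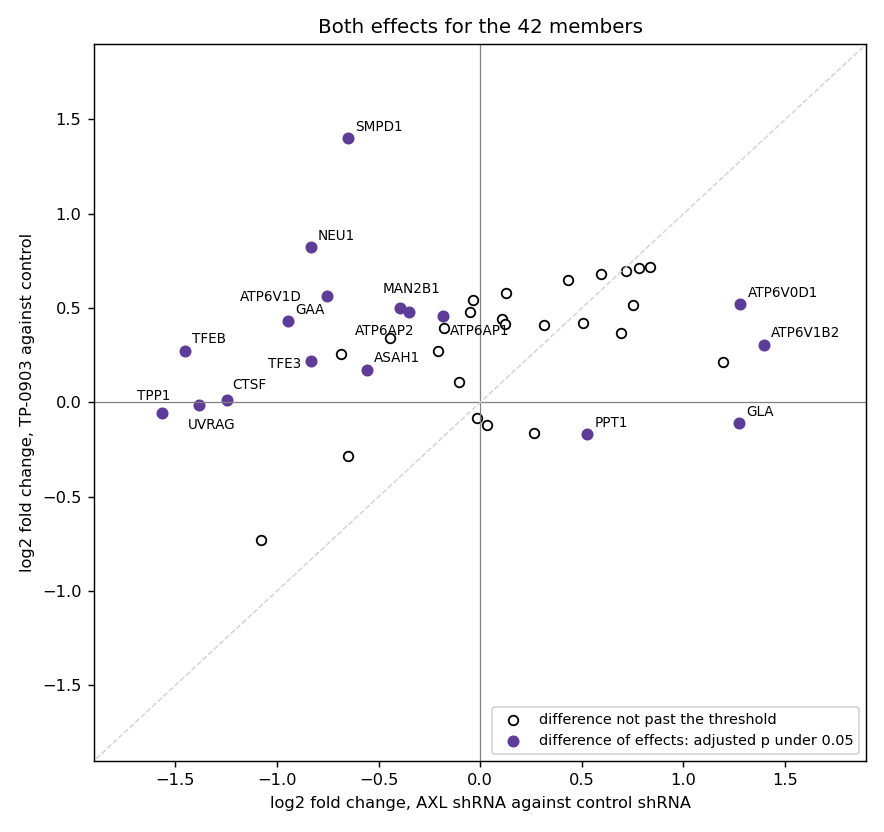
Log2 fold change with AXL shRNA (horizontal) and with TP-0903 (vertical) of the 42 genes; the dashed line marks equal effects. The 17 filled, named genes are those whose effects differed at adjusted p 0.05: 13 lie above the line, among them NEU1 and TPP1, and 4 below it (GLA, PPT1, ATP6V0D1 and ATP6V1B2).

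The control shRNA cells already differed from the control cells, which bears on where the hairpin effect starts. Hairpin and P number differ together between these groups and cannot be told apart. GLB1, GAA, MAN2B1, ASAH1, PSAP, TPP1 and MAP1LC3B were higher in control shRNA and PPT1 lower, 7 and 1 of 42, where 3.06% and 6.09% of all genes passed. MAN2B1 differed by 0.95 (SE 0.14, adjusted p = 0.00924), GAA by 0.91 (SE 0.18, adjusted p = 0.0277) and TPP1 by 0.82 (SE 0.10, adjusted p = 0.00471). None of the 8 calls held without control P17, 1 gene was higher without control shRNA P15, 4 without control shRNA P3 and 5 without control P4, and none was lower in any of these fits. Mean levels with AXL shRNA, set beside those of the control cells, were 95.8 ± 15.4 against 98.1 ± 14.6 CPM for GAA and 138 ± 3.86 against 129.6 ± 19.9 CPM for ASAH1 (SD, n = 2). For PPT1 they were 93 ± 1.35 against 87.7 ± 4.87 CPM, for PSAP 2999 ± 11.3 against 1298 ± 184.6 CPM, and for MAP1LC3B 167 ± 10.1 against 95.7 ± 0.935 CPM. For TPP1 they were 61 ± 5.51 against 102 ± 0.766 CPM, for UVRAG 9.21 ± 0.0882 against 21 ± 0.0719 CPM, and for TFEB 2.41 ± 0.562 against 6.74 ± 0.0689 CPM. UVRAG and TFEB did not pass between the control groups (adjusted p = 0.374 and 0.949). GAA, ASAH1 and PPT1 with AXL shRNA were therefore near the control cells. PSAP and MAP1LC3B were above them, and TPP1, UVRAG and TFEB below, with no test made.

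Other genes of the same machinery were read from lists that, like the members, were drawn up with earlier results of these data known. Their counts stand beside 18.5% of all genes higher and 19.0% lower with AXL shRNA, and 4.90% and 6.35% with TP-0903. With AXL shRNA 17.1% of the hydrolases below rose and 28.6% fell, as did 31.8% and 18.2% of the membrane proteins, 16.7% and 8.33% of the sorting genes and 13.6% and 22.7% of the autophagy genes. The shares near those of all genes are no result about a list. Further from them were the membrane proteins that rose (31.8%), the hydrolases that fell (28.6%) and the sorting genes that fell (8.33%). So were the further V-ATPase subunits that fell (7.69%) and the regulators of the TFEB family and mTORC1 that rose (0%). No list was tested as a set. With TP-0903 the share that rose was 20% of the hydrolases, 22.7% of the membrane proteins, 25% of the sorting genes and 9.09% of the autophagy genes. It was 7.69% of the further V-ATPase subunits and 8.7% of the regulators. Of 13 further V-ATPase subunits tested (of 15), 2 rose and 1 fell with AXL shRNA, ATP6V1G1 (0.90), ATP6V0C (0.64) and ATP6V1E2 (-1.66), and with TP-0903 TCIRG1 rose (0.91) and ATP6V0A2 fell (-0.56). Of 35 other lysosomal hydrolases 6 rose and 10 fell with AXL shRNA, among them CTSV (2.83) and the galactosylceramidase GALC (-1.53). With TP-0903 7 rose and 3 fell, among them the sulfatase IDS (1.04), PLBD2 (0.95) and the folate hydrolase GGH (-0.85). The calls for IDS and PLBD2 held whichever drug-arm library was left out, that for SIDT2 below was lost without control P17, and those of the other list genes named for TP-0903 were lost without more than 1 library. Of 22 other membrane proteins 7 rose and 4 fell with AXL shRNA, among them the cholesterol exporter NPC1 (1.72) and SCARB2, the carrier of glucocerebrosidase (-1.49). With TP-0903 5 rose and none fell, among them SIDT2 (1.44), OSTM1, the partner of CLCN7 (0.60), and the ion channel TMEM175 (0.97).

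Genes that sort hydrolases to the lysosome rose with the drug in 3 of 12 cases and fell in none. They were IGF2R, the large mannose 6-phosphate receptor (0.74), and GNPTAB and GNPTG, subunits of the enzyme that makes the mannose 6-phosphate tag (0.99 and 0.63). With AXL shRNA the small receptor M6PR (0.60) and VPS26A (0.42) rose and GGA3 (-0.38) fell. Of 44 other autophagy genes 6 rose and 10 fell with AXL shRNA, among them the LC3-conjugating enzyme ATG3 (-1.31), the initiation scaffold RB1CC1 (-1.29) and the cargo receptor NBR1 (-1.0). With TP-0903 4 rose and none fell, among them ZFYVE1 (1.00), the cargo receptor OPTN (1.28) and TOLLIP (0.52). Of 23 regulators of the TFEB family and mTORC1, none rose with AXL shRNA, where 18.5% of all genes did. The 4 that fell are 17.4% of the list, near the 19.0% of all genes, and so no result about it. Among them were LAMTOR1 (-0.72), RRAGB (-0.93) and RRAGD (-1.52), which anchor mTORC1 at the lysosome. With TP-0903 RRAGC (0.55) and FLCN (0.60), which acts on the Rag GTPases, rose and none fell. List medians with TP-0903 ran from 0.12 (autophagy) to 0.30 (membrane proteins), beside -0.02 for all genes, and with AXL shRNA from -0.23 (hydrolases) to 0.11 (V-ATPase), beside -0.01. Of the hairpin calls named from the lists, those for ATP6V1E2, M6PR, VPS26A, GGA3 and RRAGD were lost without 1 or another of the 4 libraries.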

How the data were processed

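Total RNA of 8 A549 libraries was sequenced from Nextera XT libraries, called biological replicates per the labels, with no strand stated. Per the submitters' processing notes, the authors used STAR 2.5.3a, RSEM and GRCh38; no annotation is named there. Expected counts, the estimated counts of RSEM, were deposited without normalization. TPM were scaled for length and depth per the file headers. The deposited FPKM were not used.

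Expected counts were rounded, filtered with filterByExpr (17676 genes kept), scaled by trimmed mean of M values and fitted in edgeR 4.0.16 (quasi-likelihood, 1 term per group, two-sided, R 4.3.3), with Benjamini-Hochberg adjustment over all genes tested and a threshold of 0.05. SE is the log2 fold change over the square root of F. CPM are counts over the scaled library total. The fits were tested on simulated data. Libraries of 1 group differed beyond counting error (binomial test, 5% level) in 46.9% to 52.3% of genes.

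The fit described above did not pair libraries, and it gave the calls wherever no other setting is named. Libraries of the same P number were taken as paired only in the block fit and in the changes within pairs. Their deviations from group means correlated at 0.559 (shRNA groups) and 0.626 (control and drug), against 0.177 to 0.38 for groups that share no number. The block fit adds the P number as a term, and its value is given where it changes a call (adjusted p = 0.00503 for LAMP1 with TP-0903, for example). Alternatives were DESeq2 1.42.0 and its size factors, library totals, no filter, limma 3.58.1 (voom, and log2 TPM plus 1 or 0.1), effective lengths, the block, the 4 libraries of a comparison alone, and each library left out.

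Values in every library are given for 13 fixed members and for the 10 members of largest change in each treatment among those that passed with groups apart; of each further list, up to 3 genes of smallest p per effect. Members and lists were chosen with earlier results of these data known. Gene overlaps come from GENCODE release 29, whose IDs held all 42 members.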

Additional observations from a re-analysis of the deposited data

Results flagged for a closer look

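For 17 genes the drug effect differed from the hairpin effect by the interaction test in edgeR, which is why they are listed here. As TP-0903 effect minus AXL shRNA effect on the log2 scale, the difference was 2.05 for SMPD1, 1.73 for TFEB, 1.66 for NEU1, 1.51 for TPP1, 1.38 for GAA, 1.37 for UVRAG and 1.32 for ATP6V1D. It was 1.26 for CTSF, 1.05 for TFE3, 0.895 for MAN2B1, 0.827 for ATP6AP2, 0.732 for ASAH1 and 0.645 for ATP6AP1. It was -0.692 for PPT1, -0.756 for ATP6V0D1, -1.09 for ATP6V1B2 and -1.38 for GLA. For MAN2B1, SMPD1, ATP6AP1 and ATP6AP2 the difference passed although the hairpin effect alone did not. The arms also differ in P number and in their controls, which cannot be told apart from treatment here.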

How the results depend on the processing

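No call of the fit described turned direction under any alternative. Of the calls, 16 of 23 with AXL shRNA, 0 of 12 with TP-0903, 6 of 17 of the difference and 0 of 8 between the controls held in every setting run, left-out libraries included. Leaving out each library in turn gave 9 to 10 members higher and 9 to 13 lower with AXL shRNA, 0 to 3 higher and 0 to 0 lower with TP-0903, 5 to 14 higher and 1 to 3 lower for the difference, and 0 to 5 higher and 0 to 0 lower for control shRNA against control. Members lower with AXL shRNA, 10 in the fit described, numbered 16 by library totals, 17 by limma on log2 TPM with either pseudocount and 16 with the replicate block. Members higher with TP-0903, 12 there, numbered 6 by library totals, 4 by log2 TPM with either pseudocount, 19 by DESeq2 and 24 with the replicate block. Members lower with TP-0903, 0 there, numbered 1 with no filter, with DESeq2, with the replicate block and with the 4 libraries alone. Control shRNA against control gave 12 higher and 2 lower with no filter, 13 and 3 with DESeq2, and 2 and 0 with the 4 libraries alone. The replicate block ended no call of a member, and the calls it added for each effect are given with the results; for the difference of effects it added 7 (19 higher and 5 lower). Scaling by library totals, log2 TPM plus 1 or log2 TPM plus 0.1 moved the median of all genes with AXL shRNA to -0.214, -0.148 and -0.211, the members' median from -0.0436 to -0.247, -0.293 and -0.312, and the share of higher genes among the calls from 49.4% to 32.8%, 31.3% and 31.1%. The cause of these shifts was not tested. Some changes that did not pass in the fit described turned sign. With AXL shRNA these were MCOLN1 (0.0125 by DESeq2 size factors, 0.0136 by DESeq2), LAMP1 (-0.0772 by library totals, -0.117 and -0.119 by log2 TPM plus 1 and 0.1), LAMP2 (-0.0965, -0.186 and -0.188 by those scalings) and CTSL (-0.00179 and -0.00186 by log2 TPM plus 1 and 0.1). Over left-out libraries the hairpin values ran from -0.142 to 0.0958 for MCOLN1, -0.0289 to 0.281 for LAMP1, -0.153 to 0.0397 for CLCN7, -0.00257 to 1.13 for CTSB (below 0 without AXL shRNA P15, and past the threshold with no filter or the block), -0.23 to 0.63 for CTSL, and -0.199 to 0.0173 for the members' median, which was above 0 without control shRNA P15. With TP-0903 they were UVRAG (0.00525 by DESeq2 size factors, 0.00547 by DESeq2, 0.00445 with the 4 libraries alone), CTSF (-0.0492 by library totals, -0.00487 and -0.00501 by log2 TPM plus 1 and 0.1) and TPP1 (0.126 and 0.128 by log2 TPM plus 1 and 0.1, 0.166 with effective lengths). Over left-out libraries the drug values ran from -0.0929 to 0.0746 for UVRAG, -0.137 to 0.214 for CTSF, -0.0437 to 0.559 for SQSTM1, -0.166 to 0.012 for MCOLN1, -0.371 to 0.126 for GLA and -0.594 to 0.452 for CTSL. Libraries of 1 group differed beyond counting error in 46.9% to 52.3% of genes, and for the rest the depth does not tell their spread from counting error.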
